A study of Mus musculus with 15 samples.

Results

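Immediate early genes are transcribed within minutes of a stimulus from factors already present in the cell, and 10 of them are described here in mouse suprachiasmatic nucleus (SCN), the hypothalamic pacemaker of circadian rhythms. The members were chosen by gene symbol: Fos, Fosb, Fosl2, Jun, Junb, Egr1, Egr3, Nr4a1, Nr4a3 and Arc. All 10 were among the 24419 genes of the deposited count table, and all 10 were among the 16910 that passed the filter on low counts. Tissue punched from the SCN was sequenced in 15 RNA libraries, each a pool of 2 to 4 punches, from C57BL/6 mice aged 8 to 12 weeks. The study compared mice labelled REV-ERBS DKO, which the series describes as lacking the nuclear receptors REV-ERB alpha and beta, with mice labelled control. Punches were taken at circadian time (CT) 4, in the subjective day, or CT16, in the subjective night. At CT4 each genotype had 3 libraries, and at CT16 the control group had 5 and the DKO group 4. The labels name neither the cells in which the receptors were removed, nor the driver of the deletion, nor any allele carried by the controls. They do not say whether mice were shared between pools, so p-values measure the spread between these pools.

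Calcium entry and cyclic AMP lead to phosphorylation of CREB, and MAP kinase signals act through serum response factor with Elk1. Both routes start transcription of Fos, Egr and Nr4a genes, whose products then switch on later genes. In the SCN, light at night is the best-known inducer of Fos, and immediate early genes are also transcribed there without light. Neuronal firing was not measured here. REV-ERB alpha and beta repress transcription from response elements that they share with the ROR receptors.

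RefSeq sequence upstream of the start site (assembly GRCm38.p6) was searched for 7 of the 10 members. No window was found for Egr3 and Arc, and Egr1 was left out of the search. The letters TGACG, the core of the cyclic AMP response element (CRE) to which CREB binds, were searched on both strands of the 250 bases before each start. They occurred in 5 of the 7 windows, against 17.8% of 32851 RefSeq windows of the same length. Fosb, Nr4a3 and Nr4a1 are shown because Fosb was called between times in both genotypes and Nr4a3 was the member called between genotypes, while Nr4a1 belongs to the same family as Nr4a3 and had no called difference. Capitals mark TGACG, or CGTCA where the match is on the other strand, and each sequence runs 5′ to 3′ on the gene's strand. The Fosb window is chr7:19310046-19310295 (minus strand), the Nr4a3 window chr4:48045055-48045304 (plus strand) and the Nr4a1 window chr15:101266596-101266845 (plus strand).
Fosb: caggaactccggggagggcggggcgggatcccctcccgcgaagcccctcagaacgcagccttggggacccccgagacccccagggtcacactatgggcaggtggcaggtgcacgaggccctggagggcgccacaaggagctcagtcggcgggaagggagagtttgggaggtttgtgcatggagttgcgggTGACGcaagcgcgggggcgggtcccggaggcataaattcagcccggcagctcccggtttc
Nr4a3: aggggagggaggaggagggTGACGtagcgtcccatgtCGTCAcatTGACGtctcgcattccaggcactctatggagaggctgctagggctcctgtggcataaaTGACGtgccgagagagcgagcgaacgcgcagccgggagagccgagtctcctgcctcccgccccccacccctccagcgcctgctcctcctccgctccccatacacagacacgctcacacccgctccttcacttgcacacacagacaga
Nr4a1: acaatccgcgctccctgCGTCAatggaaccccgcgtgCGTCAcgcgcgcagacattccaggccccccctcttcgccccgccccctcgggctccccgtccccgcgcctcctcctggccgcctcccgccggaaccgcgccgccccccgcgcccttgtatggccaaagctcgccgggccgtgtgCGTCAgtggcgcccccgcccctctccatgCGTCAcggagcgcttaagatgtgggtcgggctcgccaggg
Fosb has 1 match, and Nr4a3 and Nr4a1 have 4 each. Of the windows not printed, Fos holds 2 matches and Junb 1, while Fosl2 and Jun have none. The letters GCGNGGGCG, a binding sequence of EGR proteins, were found in Fosb, Fosl2 and Nr4a1, or 3 of 7 windows against 4.7% of all windows. Sequences searched and found in 0 of 7 windows were the full CRE TGACGTCA (1.55% of all windows), the AP-1 site TGANTCA (6.75%), the CArG box of serum response factor (1.47%), AGGTCA (14%), the NR4A site AAAGGTCA (1.34%) and the E-box CACGTG (6.02%). A full CRE contains TGACG, and AAAGGTCA contains AGGTCA. These are matches of letters, not measured binding, and sites outside the 250 bases were not searched.

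Libraries held 32580803 to 68757624 counts, and the least-counted value of any member was 66 counts, for Fosb. All 12 markers of the SCN were found in every library. Counts over the whole of the targeted genes were not lower in the libraries labelled DKO: Nr1d1 ran from 226 to 252 CPM (counts scaled to the library total) in DKO and from 198 to 282 CPM in control at CT4, and from 241 to 378 CPM against 135 to 150 CPM at CT16. Nr1d2 ran from 163 to 181 CPM against 116 to 130 CPM at CT4 and from 198 to 259 CPM against 96.7 to 118 CPM at CT16. The labels do not name the deleted exons, so these counts check no label, and every genotype below is the genotype as labelled. The mix of tissue varied between punches. On a score of 12 SCN markers (mean log2 CPM centred on all libraries), the DKO CT4 libraries lay at -0.57 to -0.46, and the control CT4 libraries at -0.14 (replicate 1), 0.73 and 0.71. On a score of 16 markers of neighbouring hypothalamic nuclei, the DKO CT4 libraries lay at 0.60 to 1.16 and the control CT4 libraries at 0.67 (replicate 1), -1.01 and -0.49. At CT16 the SCN score ran from -0.44 to 0.35 in control and from -0.56 (replicate 3) to 0.66 (replicate 4) in DKO. Summed myelin markers reached 19224 CPM in DKO CT16 replicate 4, against 2830 to 9324 CPM in the other 14 libraries. Control CT4 replicate 1 and DKO CT16 replicates 3 and 4 were chosen from these values as the libraries that stood apart. Control CT16 replicate 5 was kept, although its score of neighbouring nuclei was 0.77, against -0.58 to 0.17 in the rest of its group. Values without the 3 chosen libraries are given for members whose call was lost or gained and for pathway genes whose call was lost. In bulk tissue, fewer cells of a type and less RNA per cell cannot be told apart.

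**Figure D1:**
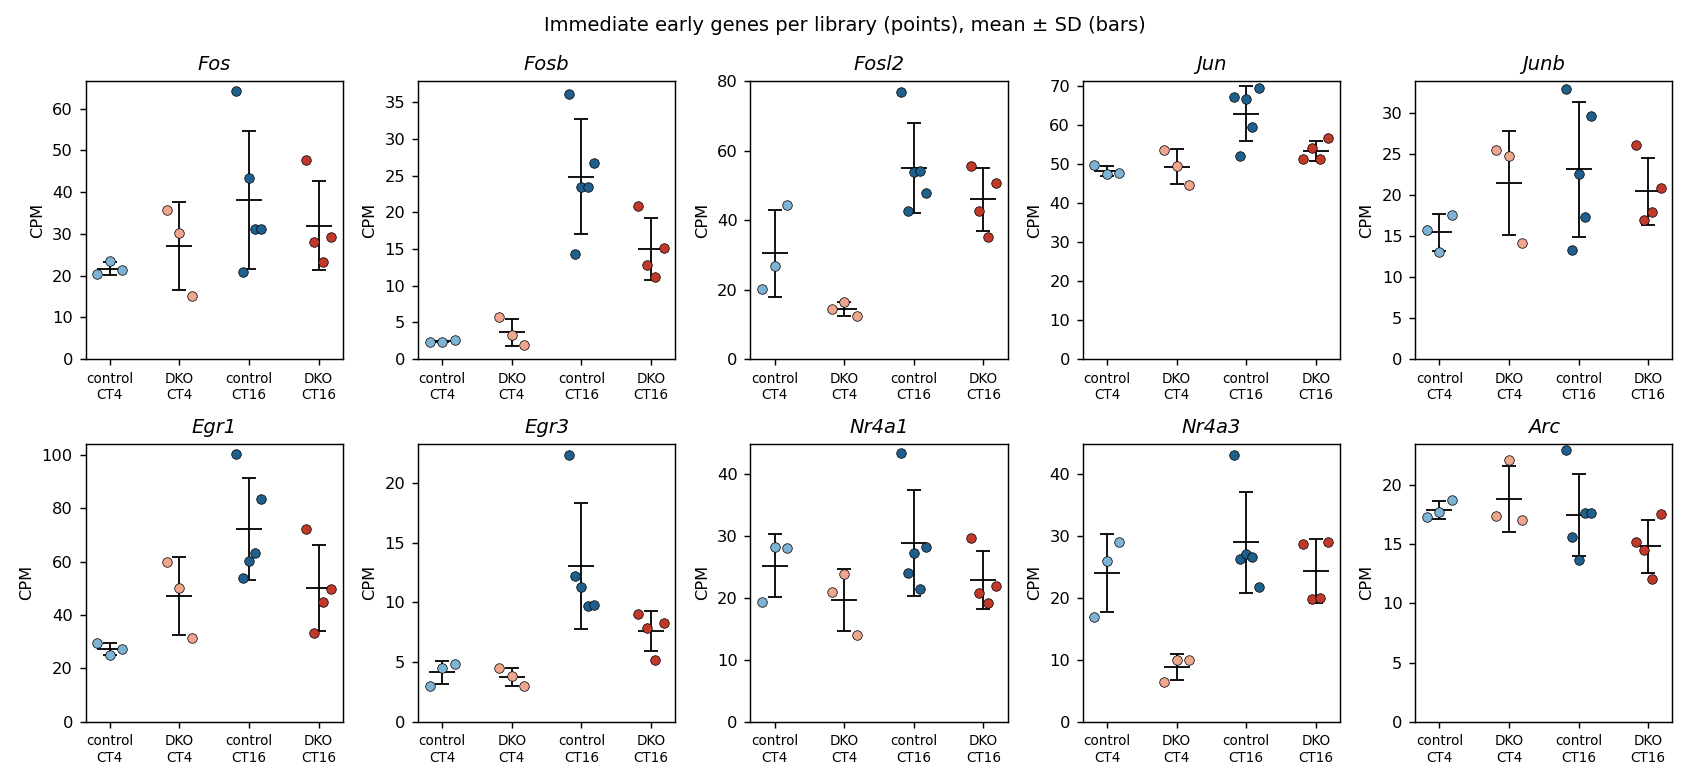
CPM of each of the 10 genes in each of the 15 libraries (points, by genotype and CT), with the group mean as a bar. Fosb lies between 2.30 and 2.52 CPM in control libraries at CT4 and between 14.3 and 36.1 CPM at CT16, while Arc overlaps between all groups.

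Levels of different genes were compared per kilobase of exon. In control SCN at CT4 Jun was the most abundant member at 15.1 ± 0.405 CPM per kb (SD, n = 3), followed by Fos at 10.4 ± 0.769, Nr4a1 at 10.2 ± 2.04, Egr1 at 8.84 ± 0.734 and Junb at 8.39 ± 1.22 CPM per kb. From Fos to Junb each gene lay within 1 SD of the next. Arc followed at 5.86 ± 0.251, Fosl2 at 5.19 ± 2.13 and Nr4a3 at 4.29 ± 1.13 CPM per kb, and these were again within their spread. Egr3 at 1.03 ± 0.250 and Fosb at 0.635 ± 0.0304 CPM per kb were the lowest. At CT16 in control Egr1 led at 23.5 ± 6.26 CPM per kb (SD, n = 5), within its spread of Jun at 19.7 ± 2.22 and Fos at 18.2 ± 7.93 CPM per kb, and Fosb had moved from the last position to the seventh, at 6.57 ± 2.08 CPM per kb. Junb at 12.5 ± 4.45, Nr4a1 at 11.7 ± 3.46 and Fosl2 at 9.39 ± 2.23 CPM per kb stood between, each within its spread of the next, and Arc at 5.73 ± 1.13, Nr4a3 at 5.18 ± 1.46 and Egr3 at 3.26 ± 1.32 CPM per kb came last.

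In DKO libraries the first 5 genes were Jun, Egr1, Fos, Junb and Nr4a1 at both times. At CT4 they held 15.5 ± 1.40, 15.4 ± 4.75, 12.9 ± 5.06, 11.6 ± 3.45 and 7.93 ± 2.04 CPM per kb (SD, n = 3), and at CT16 16.7 ± 0.795, 16.3 ± 5.31, 15.3 ± 5.13, 11.1 ± 2.24 and 9.23 ± 1.87 CPM per kb (SD, n = 4). Jun, Egr1 and Fos were within their spread of each other at both times. At CT4 Arc followed at 6.16 ± 0.919, Fosl2 at 2.45 ± 0.351, Nr4a3 at 1.57 ± 0.376, Fosb at 0.959 ± 0.502 and Egr3 at 0.941 ± 0.193 CPM per kb, of which only Fosb and Egr3 lay within 1 SD of each other. At CT16 Fosl2 followed at 7.85 ± 1.54, Arc at 4.85 ± 0.732, Nr4a3 at 4.36 ± 0.931, Fosb at 3.97 ± 1.12 and Egr3 at 1.89 ± 0.420 CPM per kb, and Arc, Nr4a3 and Fosb lay within their spread.

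Control pools taken at CT16 were first set against those taken at CT4, a time in subjective night against a time in subjective day. Fosb, Egr3, Egr1 and Jun rose from CT4 to CT16, by 10.3-fold, 3.16-fold, 2.66-fold and 1.30-fold. These 4 of the 10 members passed the test and none fell, against 4.21% of all tested genes called in either direction (2.13% higher, 2.08% lower), with edgeR's quasi-likelihood test at a Benjamini-Hochberg adjusted p under 0.05. The same 4 genes had CT16 libraries that all lay above the CT4 libraries, where 15.8% of all genes did not overlap (7.99% higher, 7.8% lower). The median log2 fold change over the 10 members was 0.69, against -0.01 over all genes. Tissue markers also differed between these groups: the 12 SCN markers had a median log2 difference of -0.47, with 11 below 0 and 2 called lower, Rgs16 (-1.72 ± 0.36 SE) and Six6 (-0.99 ± 0.25 SE). The 16 markers of neighbouring nuclei had a median of 0.25, with 1 called higher, Crh (edgeR adjusted p = 0.0491). Crh was scarce, with means of 0.188 CPM at CT4 and 3.72 CPM at CT16. The SCN score includes Rgs16, which was also called higher in DKO than in control at CT16 (log2 2.39 ± 0.34 SE, edgeR adjusted p = 0.00193). As a covariate the score can therefore carry differences of time and genotype as well as of tissue makeup. The part of tissue makeup was not tested beyond the covariate fits given with each gene.

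Within the Fos family, whose proteins pair with Jun proteins to form the factor AP-1, Fosb (chromosome 7, 19302696 to 19310045 on the minus strand, mm10) was higher in every CT16 library than in any CT4 library. Its 3 control libraries at CT4 held 2.37, 2.30 and 2.52 CPM, and its 5 control libraries at CT16 held 36.1, 14.3, 23.4, 23.5 and 26.7 CPM. The lowest CT16 value was from replicate 2 and the highest from replicate 1. The log2 fold change was 3.37 ± 0.38 (SE, edgeR adjusted p = 0.000571). Fos (chromosome 12, 85473901 to 85477270, plus strand), the founding member and the usual histological marker of neuronal activation, held 20.3, 23.4 and 21.4 CPM at CT4 and 64.2, 20.7, 43.3, 31.2 and 31.2 CPM at CT16. Replicate 2 at CT16 fell among the CT4 libraries, and the log2 difference of 0.81 ± 0.38 (SE) did not pass (edgeR adjusted p = 0.263). Fosl2 (chromosome 5, 32136472 to 32157839, plus strand), which encodes FRA2, held 20.1, 26.8 and 44.3 CPM at CT4 and 76.8, 42.5, 53.8, 54.0 and 47.9 CPM at CT16. CT4 replicate 3 overlapped the CT16 range, and the log2 difference of 0.86 ± 0.26 (SE) gave an edgeR adjusted p of 0.0877. Fosl2 passed in 4 of 24 alternative analyses, DESeq2 among them.

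The makeup of the Fos family, taken as each gene's share of the summed CPM per kb, moved with Fosb. In control libraries Fosb made up 3.97% ± 0.511 (SD, n = 3) at CT4 and 19.3% ± 2.57 (SD, n = 5) at CT16. Fos remained the most abundant member, at 64.7% ± 8.17 at CT4 and 51.9% ± 4.96 at CT16. Fosl2 took 31.3% ± 8.53 at CT4 and 28.3% ± 4.02 at CT16. The shares are descriptions of the same CPM values and were not tested.

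**Figure D2:**
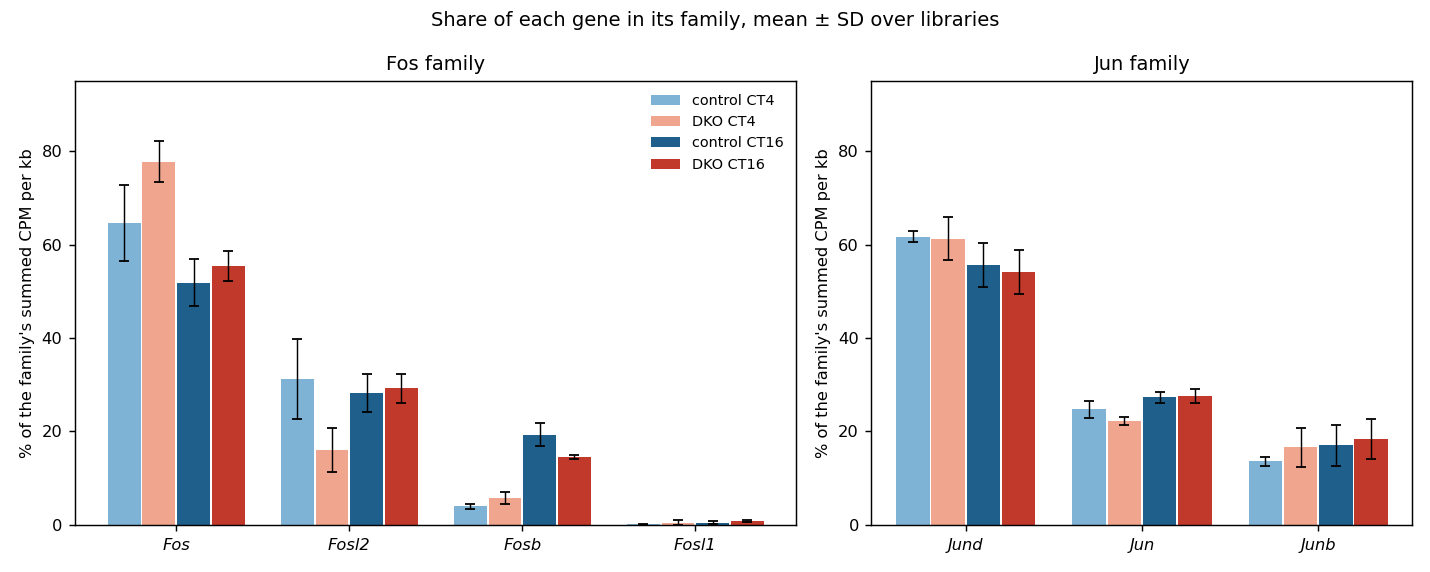
Share of each gene in the summed CPM per kb of its family (bars, mean; error bars, SD over 3 to 5 libraries), by genotype and CT, for the Fos family on the left and the Jun family on the right. The share of Fosb is 3.97% in control and 5.69% in DKO at CT4, and 19.3% and 14.5% at CT16.

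Among the Jun genes, Jun (chromosome 4, 95049036 to 95052222, minus strand), a partner of Fos proteins in AP-1, had the smallest spread of all members. It held 49.7, 47.3 and 47.8 CPM at CT4 and 67.1, 52.1, 66.5, 59.5 and 69.3 CPM at CT16 in control, with no overlap. The log2 fold change was 0.38 ± 0.08 (SE, edgeR adjusted p = 0.0160). Without any 1 of the 3 control CT4 libraries the call for Jun was lost, at adjusted p-values from 0.0510 to 0.0761. The strand setting of the counting is not given in the sources used here, so reads from an RNA antisense to Jun could not be told apart from Jun. Junb, another AP-1 partner (chromosome 8, 84976909 to 84978748, minus strand), held 13.1 to 17.5 CPM at CT4 and 13.2 to 32.9 CPM at CT16, with a log2 difference of 0.58 ± 0.29 (SE, edgeR adjusted p = 0.302).

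Egr1 and Egr3, zinc finger genes of the Egr family, rose in control SCN. Egr1 held 29.4, 24.9 and 27.2 CPM at CT4 and 100.5, 54.0, 60.2, 63.3 and 83.4 CPM at CT16. The lowest CT16 library was well above the highest CT4 library, and the log2 fold change was 1.41 ± 0.29 (SE, edgeR adjusted p = 0.0213). The call for Egr1 was lost without the 3 libraries that stood apart (log2 1.47 ± 0.41 SE, edgeR adjusted p = 0.0954). It was also lost without any 1 control CT4 library and with the SCN score as a covariate (edgeR adjusted p = 0.0539). Egr3 (chromosome 14, 70077445 to 70082613, plus strand) held 2.99, 4.52 and 4.87 CPM at CT4 and 22.3, 12.2, 11.3, 9.70 and 9.75 CPM at CT16. Its groups did not overlap either, and the log2 fold change was 1.66 ± 0.30 (SE, edgeR adjusted p = 0.00783). The calls for Fosb and Egr3 held in all 24 alternatives.

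The orphan nuclear receptors Nr4a1 and Nr4a3 and the synaptic gene Arc, whose product takes part in the removal of AMPA receptors, did not pass between the times in control. Nr4a1 (chromosome 15, 101266846 to 101274794, plus strand) held 19.4 to 28.2 CPM at CT4 and 21.4 to 43.4 CPM at CT16, with a log2 difference of 0.19 ± 0.24 (SE). Nr4a3 (chromosome 4, 48045305 to 48086446, plus strand) held 16.9 to 29.1 CPM and 21.8 to 43.1 CPM, with a log2 difference of 0.27 ± 0.25 (SE). Arc (chromosome 15, 74669081 to 74672570, minus strand) held 17.3 to 18.8 CPM and 13.7 to 23.0 CPM, with a log2 difference of -0.04 ± 0.15 (SE). For all 3 genes the ranges overlapped.

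In DKO SCN the genes that rose from CT4 to CT16 were Fosb, Fosl2 and Nr4a3, by 4.10-fold, 3.20-fold and 2.78-fold. They were 3 of the 10 members, against 1.8% of all tested genes called in either direction (1.29% higher, 0.509% lower), and none of the members fell. These 3 and Egr3 were higher at CT16 with no overlap between the times, where 14.7% of all genes did not overlap (8.32% higher, 6.38% lower). The median log2 fold change over the members was 0.23, against 0.01 over all genes.

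Fosb held 5.69, 3.21 and 1.97 CPM at CT4 and 20.8, 12.8, 11.2 and 15.1 CPM at CT16 in DKO, a log2 fold change of 2.04 ± 0.37 (SE, edgeR adjusted p = 0.0138). Fosl2 held 14.4, 16.4 and 12.3 CPM at CT4 and 55.5, 42.7, 35.1 and 50.7 CPM at CT16, a log2 fold change of 1.68 ± 0.28 (SE, edgeR adjusted p = 0.0112). Nr4a3 held 6.35, 9.98 and 10.0 CPM at CT4 and 28.7, 19.8, 20.01 and 29.1 CPM at CT16, a log2 fold change of 1.48 ± 0.28 (SE, edgeR adjusted p = 0.0191). For each of these genes the lowest CT16 library held more than the highest CT4 library. Egr3 held 4.52, 3.81 and 2.98 CPM at CT4 and 9.004, 7.87, 5.15 and 8.30 CPM at CT16, which did not overlap, but its log2 difference of 1.00 ± 0.31 (SE) gave an edgeR adjusted p of 0.109. Egr1 held 60.0, 50.3 and 31.3 CPM at CT4 and 72.3, 33.4, 45.01 and 49.9 CPM at CT16, ranges that overlapped, with a log2 difference of 0.09 ± 0.29 (SE, edgeR adjusted p = 0.907). Fos, Jun, Junb, Nr4a1 and Arc had log2 differences of 0.24, 0.11, -0.07, 0.22 and -0.35, and none passed.

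All 3 calls in DKO were lost when DKO CT4 replicate 3 was left out, at edgeR adjusted p-values of 0.0638 for Fosb, 0.0708 for Fosl2 and 0.0682 for Nr4a3. That library was the lowest of its group for 9 of the 10 members. The loss was not particular to it: Nr4a3 was also lost without DKO CT4 replicate 1 or 2 or DKO CT16 replicate 1 (adjusted p-values of 0.0516 to 0.0747), Fosl2 without DKO CT4 replicate 1 (0.0510) and Fosb without DKO CT4 replicate 2 (0.0978). All 3 calls were also lost with either tissue score as a covariate, where the log2 fold changes were 1.97 and 1.86 for Fosb, 1.35 and 1.26 for Fosl2, and 1.12 and 1.04 for Nr4a3. Without the 3 libraries that stood apart, the 3 calls held. That exclusion took out DKO CT16 replicate 3, the DKO CT16 library nearest to DKO CT4 in both tissue scores. DKO CT16 replicates 1 and 2 remained, at -0.85 and -1.34 on the score of neighbouring nuclei, against 0.60 to 1.16 in DKO CT4. The exclusion is therefore no check on tissue makeup. The 12 SCN markers had a median log2 difference of 0.95 between the times in DKO, with none called by edgeR and 5 at an unadjusted p under 0.05. The 16 markers of neighbouring nuclei had a median of -0.86, with none called and 2 at an unadjusted p under 0.05. At least 3116 of all 16910 tested genes were under that p.

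**Figure D3:**
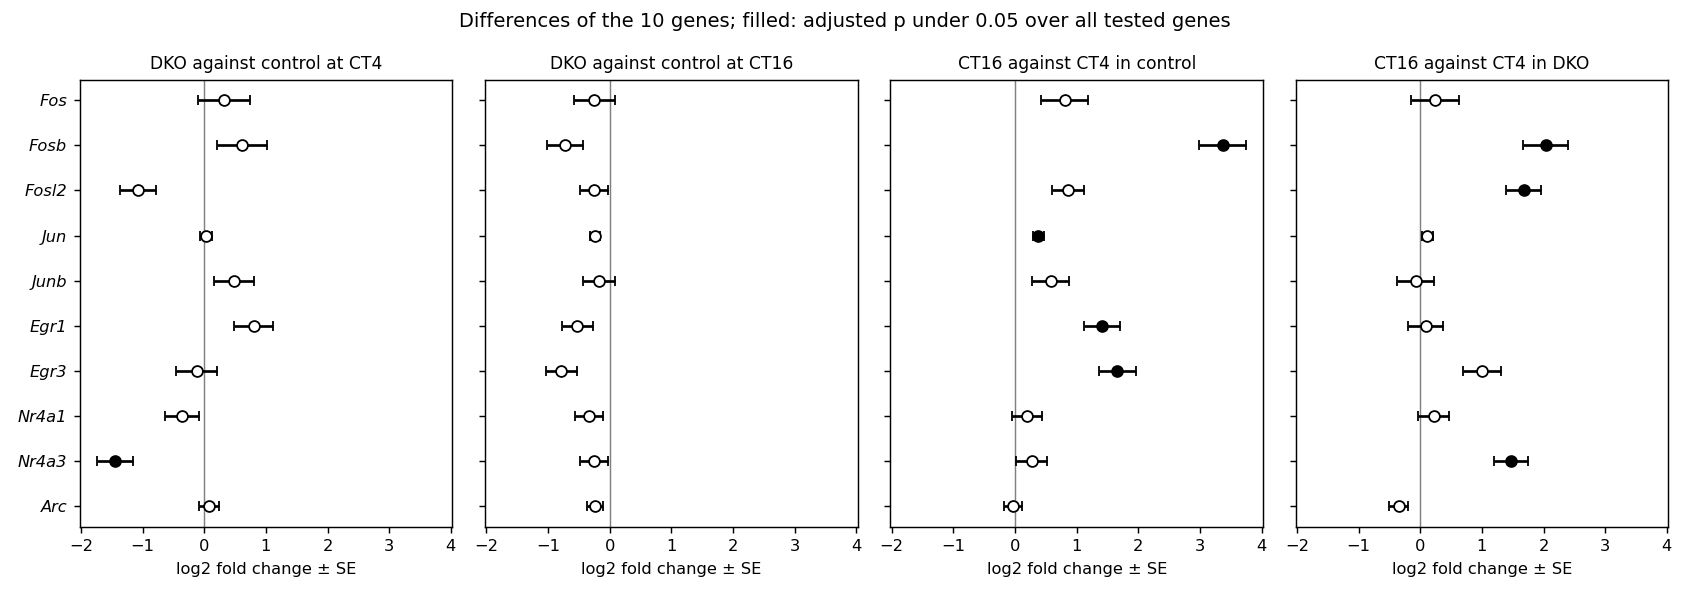
Log2 fold change (x axis; points, error bars ± SE) of each of the 10 genes in the tested comparisons of genotype and time, with filled points for those past an edgeR adjusted p of 0.05. Fosb is higher at CT16 in both genotypes, and Nr4a3 is the only member past the threshold between genotypes, at CT4.

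Between genotypes at CT4, Nr4a3 was lower in DKO SCN, at 0.365 times the control level, and no other member passed. This was 1 of 10 members, against 1.28% of all tested genes called in either direction (0.71% lower, 0.574% higher). Fosl2 and Nr4a3 were lower and Egr1 higher without overlap between genotypes, 3 of 10 members where 25.4% of all genes did not overlap (13.3% lower, 12.1% higher). The median log2 fold change over the members was 0.05, against -0.00 over all genes.

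Nr4a3 held 16.9, 26.1 and 29.1 CPM in control and 6.35, 9.98 and 10.0 CPM in DKO at CT4. All DKO libraries were below all control libraries, and the log2 fold change was -1.45 ± 0.29 (SE, edgeR adjusted p = 0.0383). Fosl2 held 20.1, 26.8 and 44.3 CPM in control and 14.4, 16.4 and 12.3 CPM in DKO, with a log2 difference of -1.07 ± 0.29 (SE, edgeR adjusted p = 0.106). Egr1 held 29.4, 24.9 and 27.2 CPM in control and 60.0, 50.3 and 31.3 CPM in DKO, with a log2 difference of 0.80 ± 0.31 (SE, edgeR adjusted p = 0.254). The third DKO library of Egr1 was close to the control range. Fosb, Junb and Fos had log2 differences of 0.61 ± 0.41, 0.48 ± 0.32 and 0.32 ± 0.41 (SE), and Nr4a1, Egr3, Jun and Arc had -0.36 ± 0.27, -0.12 ± 0.33, 0.03 ± 0.09 and 0.07 ± 0.16 (SE). All 7 of these overlapped between genotypes.

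The tissue scores moved with the genotype at CT4. The 12 SCN markers had a median log2 difference of -1.19 between DKO and control, with none called by edgeR and 9 at an unadjusted p under 0.05. Their summed level was 912 to 969 CPM in DKO and 1093 to 1187 CPM in control. The 16 markers of neighbouring nuclei had a median log2 difference of 0.90, with none called and 1 at an unadjusted p under 0.05. Their summed level was 790 to 926 CPM in DKO and 417 to 773 CPM in control. At least 2371 of all 16910 tested genes were under that p. The 8 neuronal markers were all above 0 (median 0.17), 7 of them higher without overlap, against 12.1% of all genes. Medians were -0.11 for astrocyte, -0.01 for myelin, 0.06 for microglial, -0.06 for endothelial and 0.27 for ependymal and tanycyte markers. None of these lists had a gene called. With the SCN score as a covariate, Nr4a3 differed by -0.90 ± 0.33 on the log2 scale (SE, edgeR adjusted p = 0.354), and with the score of neighbouring nuclei by -1.06 ± 0.26 (SE, edgeR adjusted p = 0.159). Fosl2 then differed by -0.56 and -0.72, and Egr1 by 0.72 and 0.76. The part of tissue makeup in these differences was not tested further. The Nr4a3 call was lost in 12 of 24 alternatives, among them 7 of the 15 that left out 1 library, with log2 fold changes from -1.65 to -0.90. Without the 3 libraries that stood apart, both Nr4a3 (-1.65 ± 0.31 SE, edgeR adjusted p = 0.0240) and Fosl2 (-1.30 ± 0.29 SE, edgeR adjusted p = 0.0496) were called lower. That exclusion took out control CT4 replicate 1, the control CT4 library nearest to DKO CT4 in SCN score. The control CT4 libraries left were at 0.73 and 0.71, against -0.57 to -0.46 in DKO. The exclusion is therefore no check on tissue makeup.

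**Figure D4:**
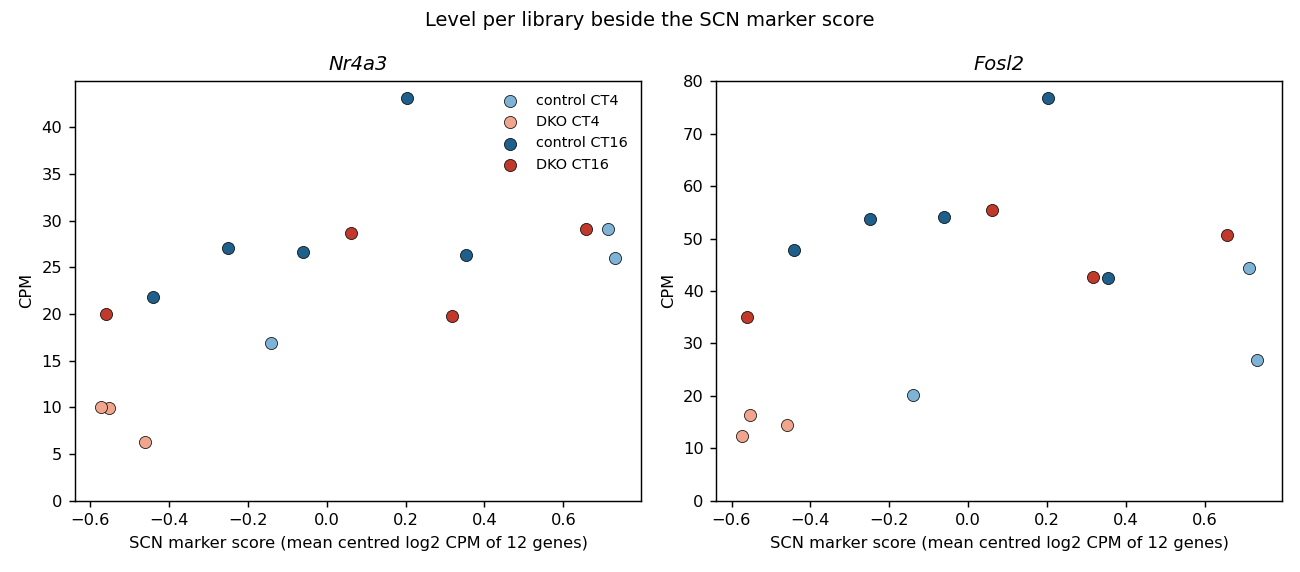
CPM of Nr4a3 (left) and Fosl2 (right, y axes) against the SCN marker score of each library (x axis, mean centred log2 CPM of 12 SCN markers), coloured by genotype and CT. The 3 DKO CT4 libraries lie at scores of -0.57 to -0.46, below the control CT4 libraries at -0.14, 0.71 and 0.73.

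At CT16 no member passed between genotypes, although all 10 lay below 0. The count was 0 of 10 by edgeR, against 4.66% of all tested genes called in either direction (1.83% lower, 2.83% higher). At an unadjusted edgeR p under 0.05 were 3 members, where at least 3084 of all 16910 tested genes were under that p. DESeq2 called 2 members, Jun and Egr3, and 1267 genes in all. The median log2 difference over the members was -0.25, against 0.00 over all genes. Without control CT16 replicate 1 the median was -0.13 and 9 of 10 members lay below 0. Markers of several cell types lay to one side as well: the 8 neuronal markers were all below 0 (median -0.13), the 16 markers of neighbouring nuclei had a median of -0.65 with 4 at an unadjusted p under 0.05, and the 8 myelin markers were all above 0 (median 0.77). None of these 3 lists had a gene called by edgeR. Of 8 astrocyte markers Gja1 was called higher and Aldh1l1 lower, and of 6 ependymal and tanycyte markers Tmem212 was called higher. The 12 SCN markers lay on both sides of 0 (6 above, median 0.09), with 1 called higher, Rgs16. The 8 microglial markers were all above 0 (median 0.19) and the 7 endothelial markers had a median of 0.01, with none called in either list. Their part in the members' values was not tested beyond the covariate fits.

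Egr3 held 22.3, 12.2, 11.3, 9.70 and 9.75 CPM in control and 9.004, 7.87, 5.15 and 8.30 CPM in DKO at CT16. It was the only member without overlap, where 6.97% of all genes did not overlap (2.94% lower, 4.03% higher), and its log2 difference was -0.78 ± 0.26 (SE, edgeR adjusted p = 0.104). The difference was -0.50 ± 0.18 (SE) without control CT16 replicate 1 and -0.62 ± 0.31 (SE) without the 3 libraries that stood apart. With the SCN score or the score of neighbouring nuclei as a covariate Egr3 passed, at log2 differences of -0.884 and -0.997 (edgeR adjusted p = 0.0126 and 0.00981). Jun held 67.1, 52.1, 66.5, 59.5 and 69.3 CPM in control and 51.3, 54.1, 51.3 and 56.6 CPM in DKO, where the second control library lay within the DKO range. The log2 difference of Jun was -0.24 ± 0.07 (SE, edgeR adjusted p = 0.0841). Fosb held 14.3 to 36.1 CPM in control and 11.2 to 20.8 CPM in DKO, with a log2 difference of -0.73 ± 0.29 (SE, edgeR adjusted p = 0.183). Egr1 held 54.0 to 100.5 CPM in control and 33.4 to 72.3 CPM in DKO, with a log2 difference of -0.53 ± 0.25 (SE, edgeR adjusted p = 0.277). The other 6 members had log2 differences between -0.33 and -0.17, and all overlapped.

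The interaction asks whether the genotype difference changed between the times, which also tests whether the daily course differed between genotypes. No member passed by edgeR, against 0.0118% of all tested genes, while 5 had an unadjusted p under 0.05 and DESeq2 called 1, Egr1. At least 2478 of all 16910 tested genes were under that unadjusted edgeR p. The log2 change from CT4 to CT16 in DKO minus that in control was -1.33 ± 0.50 (SE, edgeR adjusted p = 0.243) for Fosb and -1.33 ± 0.40 (SE, edgeR adjusted p = 0.178) for Egr1. For Nr4a3 and Fosl2 it was 1.21 ± 0.37 (SE, edgeR adjusted p = 0.176) and 0.82 ± 0.37 (SE, edgeR adjusted p = 0.327). For Jun it was -0.27 ± 0.12 (SE, edgeR adjusted p = 0.298). The comparisons of genotype and of time share libraries, so the values of Egr1 in them all rest on the same CT4 and CT16 levels. For Egr1 the interaction ran from -1.56 to -1.11 over the 23 alternatives, and DESeq2's adjusted p was 0.0496.

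Other genes of the same pathway were read from lists. Among 16 other immediate early transcription regulators, 6 rose and 1 fell from CT4 to CT16 in control. Klf2, Klf4 and Csrnp1, which encode nuclear factors, rose by 1.15 ± 0.16, 0.93 ± 0.17 and 0.89 ± 0.18 on the log2 scale (SE). Fosl1, the scarcest Fos gene, had 0 to 2 counts per library at CT4 and 4 to 16 at CT16 and also passed. In DKO 1 rose, Csrnp1 by 0.93 ± 0.19 (SE), and 1 fell, Jund by -0.37 ± 0.09 (SE). The call for Jund was lost in 13 of 24 alternatives and that for Csrnp1 in DKO in 8, in both cases with either tissue score. Jund, the most abundant Jun gene, made up 61.6% ± 1.17 of the family's CPM per kb in control at CT4 and 55.7% ± 4.70 at CT16. No gene of that list passed between genotypes by edgeR at CT4 or CT16, with 3 and 5 at an unadjusted p under 0.05. At least 2371 and 3084 of all 16910 tested genes were under that p. Jund came closest, at CT16 (log2 -0.28 ± 0.08 SE, edgeR adjusted p = 0.0522), and was called lower in 8 of 24 alternatives. The medians of the list were 0.73 in control and 0.22 in DKO between times, and 0.13 at CT4 and -0.23 at CT16 between genotypes.

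Of 16 activity-induced effectors, 4 rose in control between the times. Trib1, which encodes a pseudokinase, rose by 1.37 ± 0.14 (SE), Bdnf, the neurotrophin, by 1.11 ± 0.24, Cyr61 by 0.71 ± 0.18 and Gadd45g, a stress-response gene, by 0.56 ± 0.14 on the log2 scale. In DKO Trib1 and Gadd45g rose, by 0.96 ± 0.14 and 0.87 ± 0.14 (SE), and none fell. The call for Trib1 held in all 24 alternatives in both genotypes. Without the 3 libraries that stood apart the control calls for Bdnf (log2 1.02 ± 0.30 SE, edgeR adjusted p = 0.0993) and Gadd45g (0.46 ± 0.14 SE, edgeR adjusted p = 0.0951) were lost. Between genotypes only Cyr61 passed in that list, at CT16, where it fell by 0.64 on the log2 scale (edgeR adjusted p = 0.0357). The calls for Cyr61 were lost in 11 of 24 alternatives between times in control and in 9 of 24 at CT16. Among 10 feedback brakes, 1 rose in control, Dusp6, an ERK phosphatase, by 0.57 ± 0.11 (SE), and 1 in DKO, Spry4, by 0.40 ± 0.09 (SE), of which the call for Spry4 was lost in 9 of 24 alternatives, either tissue score included. Neither list gave a call between genotypes at CT4.

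The factors and signals that act upstream gave few calls. Of 16 upstream factors and coactivators, Mef2a fell by 0.21 on the log2 scale between times in control, Crem rose by 0.46 ± 0.11 (SE) in DKO, and Mef2c was higher in DKO at CT16 by 0.53 ± 0.14 (SE). The other tests in that list were not called. Of 24 alternatives, the calls for Crem and Mef2c were each lost in 15 and that for Mef2a in 6. Of 19 input receptors and kinases, Cacna1d, an L-type calcium channel, was lower in DKO at CT4 by -0.46 ± 0.10 (SE, edgeR adjusted p = 0.0349). That call was lost in 7 of 24 alternatives, among them the SCN score as a covariate (log2 -0.18 ± 0.08 SE, edgeR adjusted p = 0.418) and the score of neighbouring nuclei (-0.30 ± 0.09 SE, edgeR adjusted p = 0.201). Prkaca, a catalytic subunit of protein kinase A, was lower in DKO at CT16 by -0.25 ± 0.05 (SE, edgeR adjusted p = 0.00802), and Cacna1c rose between times in DKO by 0.26 ± 0.06 (SE). Without the 3 libraries that stood apart Prkaca differed by -0.20 ± 0.06 (SE, edgeR adjusted p = 0.104), and the call for Cacna1c was lost in 14 of 24 alternatives. No gene of these lists passed the interaction by edgeR. At an unadjusted p under 0.05 were 3 other regulators, 3 effectors, 3 brakes, 4 upstream factors and 4 receptors or kinases. At least 2478 of all 16910 tested genes were under that p as well.

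Genes that respond to glucocorticoids and to heat shock were read beside these results, since both are known to respond to stress and handling. Of 10 glucocorticoid-responsive genes, 7 rose from CT4 to CT16 in control and 7 in DKO, and their summed level in control was 419 to 434 CPM at CT4 and 820 to 1130 CPM at CT16. Tsc22d3 rose by 1.75 ± 0.08 and Cdkn1a by 1.72 ± 0.15 on the log2 scale in control (SE). Between genotypes 3 were higher in DKO at CT4 and 4 at CT16, with Tsc22d3 and Cdkn1a among them at both times. Of 6 heat shock genes, 3 rose between times in control, Hspa1b by 1.25 ± 0.21 on the log2 scale (SE), and none was called in DKO. At CT16, 3 were lower in DKO. In DKO Dnajb1 differed between times by 0.41 ± 0.10 (SE, edgeR adjusted p = 0.0525) and was called in 6 of 24 alternatives. The control call for Hspa1a was lost in 13 of 24 alternatives, and that for Hsph1 at CT16 in 9. Of 8 microglial markers, Cx3cr1 and P2ry12 fell between times in both genotypes, and their summed level in control was 270 to 325 CPM at CT4 and 225 to 256 CPM at CT16. Of 7 endothelial markers 2 rose, Slc2a1 and Ly6c1, and 1 fell, Cldn5, in control, and their sum was 246 to 262 CPM at CT4 and 295 to 324 CPM at CT16. From these counts, handling cannot be told apart from time of day or from genotype as a source of these differences. The part of these cells and responses in the members' values was not tested.

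Within groups, single libraries were the highest or lowest for several members. Control CT16 replicate 1, the library with the lowest total count, was the highest of its group for 9 of 10 members, and DKO CT16 replicate 1 for 7. Control CT16 replicate 2 was the lowest of its group for 6 members, as was DKO CT16 replicate 3. Ranked by Pearson's r with the members' mean deviation from the group mean over the 15 libraries, the most alike genes outside the list were Tbc1d10b (r = 0.863), Pla2g3 (0.825), Gm10516 (0.818), Midn (0.812), S1pr2 (0.807) and Pram1 (0.802). Every gene of a library shares that library's depth and tissue mix, so the values of r describe the 15 libraries and carry no test.

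**Figure D5:**
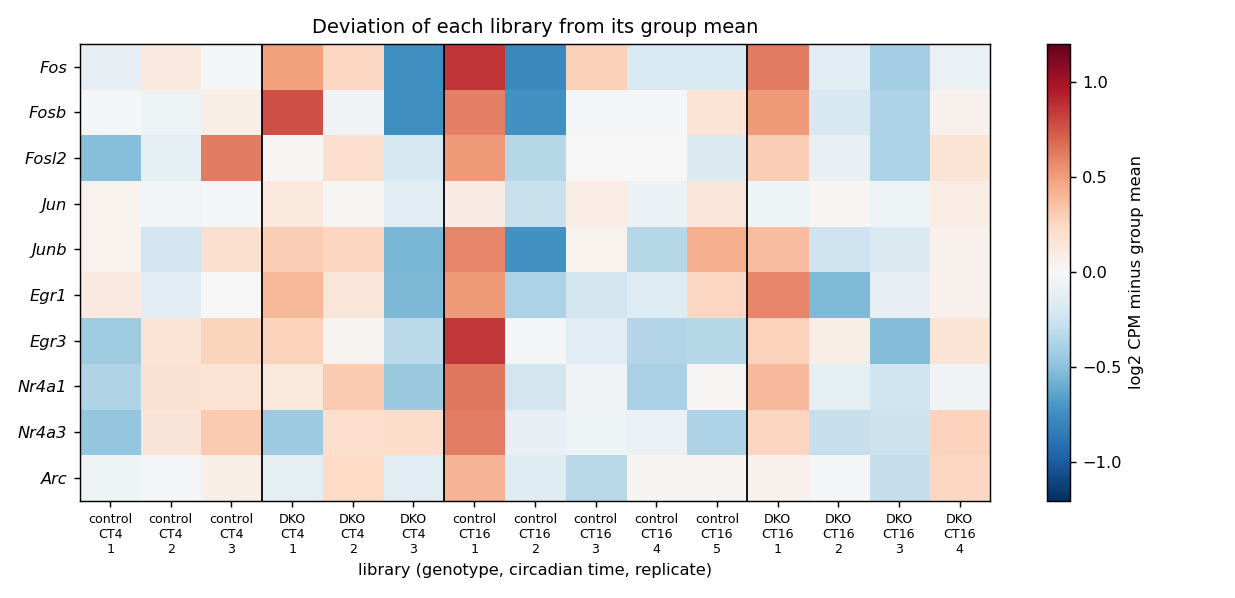
Deviation of each of the 10 genes (rows) from its group mean in log2 CPM, in each of the 15 libraries (columns). Control CT16 replicate 1 is the highest of its group for 9 of the 10 genes, and DKO CT4 replicate 3 is the lowest of its group for 9.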

How the data were processed

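Total RNA of pooled SCN punches was sequenced, and the authors deposited a table of raw read counts per gene for the 15 libraries, not normalized. Exonic lengths in bases, in the same table per the file headers, were used for CPM per kb. Named in the submitters' processing notes are STAR, featureCounts, DESeq2 and build mm10, while versions, annotation and strand setting are not given in the sources. Groups and replicate numbers came from the labels.

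In R 4.3.3, edgeR 4.0.16 kept 16910 genes with filterByExpr, applied TMM factors and fitted 1 model of 4 group means with 11 residual degrees of freedom. Each contrast was given a robust quasi-likelihood test, with Benjamini-Hochberg adjustment over all tested genes (threshold 0.05). SE is the absolute log2 fold change over the square root of F. CPM used library totals (32580803 to 68757624 counts) multiplied by their TMM factors, and log2 CPM a prior count of 2. The script was tested on simulated data. Within groups, library pairs differed beyond sampling noise (chi-square per degree of freedom 6.57 to 124) and each counted as 1 replicate.

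All 10 members were named in every comparison. From each other list, up to 4 of the called genes of smallest p were named, and for likeness the 6 genes of highest r. Members and lists were chosen with earlier results of these data known. Alternatives were RLE factors, DESeq2 1.42.0, no filter, a stricter filter, the compared groups alone, a replicate block, leaving out each library, leaving out the 3 libraries that stood apart and, added after seeing the data, each of the 2 tissue scores as a covariate. Promoter windows were RefSeq's (GRCm38.p6). No other gene of the table shared exon bases with a member.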

Additional observations from a re-analysis of the deposited data

Results flagged for a closer look

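Control CT16 replicate 1 stood apart from the other 4 libraries of its group for both genes named here. Egr3 was at 22.3 CPM in that library, with the nearest other library at 12.2 CPM and the lowest at 9.70 CPM. Nr4a3 was at 43.1 CPM there, with the nearest at 27.1 CPM and the lowest at 21.8 CPM. Each gap to the nearest library was large against the range of the group by Dixon's test. The test was made on 20 gene and group pairs and marked 2, where chance marks about 1 in 20.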

How the results depend on the processing

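The number of members called moved as follows. Between genotypes at CT4 it was 1, and became 2 with DESeq2, 2 without the 3 libraries that stood apart, and 0 with no filter, with the compared groups alone, with the replicate block and with either tissue score, and 0 to 1 when 1 library was left out. At CT16 it was 0, and became 2 with DESeq2, 1 with either tissue score and 0 to 1 with 1 library left out. Between times in control it was 4, 5 with DESeq2 and with the score of neighbouring nuclei, 3 with the replicate block and without the 3 libraries, and 2 to 4 with 1 library left out, the lowest without control CT4 replicate 1 or 2. In DKO it was 3, and became 4 with DESeq2, which added Egr3, 1 with the compared groups alone, 1 with the replicate block, 0 with either tissue score and 0 to 4 with 1 library left out, the lowest without DKO CT4 replicate 3. For the interaction it was 0, and 1 with DESeq2, and 0 whichever library was left out. The cause of these moves was not tested. No called member reversed direction in any alternative.

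Over all genes, in the order CT4, CT16, control times, DKO times and interaction, edgeR called 217, 788, 712, 304 and 2, and DESeq2 584, 1267, 1317, 874 and 360. With the compared groups alone the counts were 828 at CT4, 368 at CT16 and 47 for DKO times. Without the 3 libraries that stood apart they were 606 at CT4, 419 at CT16, 1184 for DKO times and 423 for the interaction. With the SCN score they were 40 at CT4, 127 for DKO times and 0 for the interaction, and with the score of neighbouring nuclei 36, 78 and 1. No filter gave 6 for the interaction. Leaving out 1 library gave 16 to 328, 380 to 1318, 235 to 1057, 103 to 1461 and 1 to 298. The replicate block gave 104, 503, 379, 159 and 1, but the numbers did not pair the samples, since deviations of 19 same-numbered pairs correlated at -0.184 to 0.147 and 3 were over 0.1. Groups held 3 to 5 pools, and no member fell under 66 counts in any library.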
